A study of Rattus norvegicus with 30 samples.

Results

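The genes described here copy DNA and make its building blocks: the factors that license replication origins, the helicase, the polymerases, the sliding clamp and its loader, the enzymes that finish the lagging strand, the enzymes that supply deoxynucleotides, and a few regulators of entry into S phase. They were a list of 47 rat genes given by name. No measured value enters the rule, but the list was drawn up with earlier results of these data known. Of these, 43 had a probe on the array, the brightest probe standing for each gene, out of 26913 genes and unnamed targets on the array. Mcm5, Rpa1, Chaf1a and Uhrf1 had no matched probe. Dnmt1, Exo1 and Gins3 were not well above background on any of the 30 arrays and were not tested, which left 40 tested members.

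Lung RNA came from 30 male Wistar rats of strain HsdCpb:WU, an outbred laboratory stock bought at 8 weeks of age, that breathed copper oxide (CuO) nanoparticles or clean air through the nose only on 5 consecutive days. There were 5 rats in each of 6 groups. Air rats 1 to 5, low dose rats 47 to 51 (3.3 mg/m3) and high dose rats 75 to 79 (13.2 mg/m3) were sampled on day 6, and air rats 6 to 10, low dose rats 52 to 56 and high dose rats 80 to 84 on day 28, after 22 days without exposure. The labels give the rats with a dose of 0 the same nanoparticle treatment as the exposed rats, while the protocol describes them as breathing air only, and they were taken as air rats. Each rat gave 1 array, on which its RNA (Cy5, red) was read against a common reference RNA (Cy3, green), and values are log2 ratios of lung over reference. Median Cy5 intensity was 216 to 432 per array, and log ratios of arrays of 1 group correlated at 0.924 to 0.985 across genes. The 9 tested markers of alveolar type II cells, the surfactant-making cells of the lung, had a summed Cy5 signal of 750400 or more in every rat.

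Copying begins when the origin recognition complex, Cdc6 and Cdt1 load the ring-shaped Mcm helicase onto DNA, a step that geminin (Gmnn) restrains. Mcm10, Cdc45 and the GINS complex then turn the loaded ring into a moving helicase, primase and the polymerases extend new strands held by the Pcna clamp, and ribonucleotide reductase, thymidine kinase and thymidylate synthase supply the nucleotides. Most of these genes are transcribed mainly in cells that enter S phase, under the control of E2F transcription factors, and the adult lung at rest holds few such cells. In RNA of a whole lung, fewer cells of a type and less RNA per cell cannot be told apart.

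Because E2F factors bind near the start of many replication genes, the RefSeq promoter windows of assembly GRCr8 (250 bases before to 50 after the start) were searched on both strands for the E2F sequences TTTGGCGC, TTTCGCGC, TTTCCCGC and TTTGCCGC, which can overlap each other in palindromes. A window was matched for 40 of the 47 listed genes, which are not the same 40 as the tested members. Orc1, Cdc6, Mcm4, Gins4, Rrm2, E2f1 and Ccne2 had no window and were not searched. At least 1 E2F sequence stood in 17 of the 40 windows (42.5%), against 716 of 33469 promoter windows of the rat genome (2.14%). CCAAT, the sequence of the factor NF-Y on either strand, stood in 25 of 40 (62.5%), against 37.5% of the genome's windows, and both kinds stood in 12 (30% against 0.777%). The members' windows were richer in G and C, at a median of 59.8% against 51.7%. Of the 17 genes with an E2F sequence, 15 had one centred within 50 bases of the start, and Mcm6 and Pola1 had theirs farther away. The 11 matches that follow were chosen because they cover the helicase, its activator, the clamp loader, a polymerase, the ligase and thymidylate synthase, all of them described below. Each is written along the gene's own strand, with 1 E2F sequence or its reverse complement in capitals. The stretches of Mcm2, Mcm6, Gins1 and Rfc3 hold a further match that is partly or wholly in lower case here. In the longer sequences further below all matches are in capitals.
Mcm2 (chr4:122918090-122918119, minus strand): cgtgacccggtTTTCGCGCgaaaacccgtg
Mcm3 (chr9:30733734-30733763, minus strand): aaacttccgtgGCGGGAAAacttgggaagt
Mcm3 (chr9:30733715-30733744, minus strand): acttgggaagtTTTCGCGCcagggaggagt
Mcm6 (chr13:42404473-42404502, minus strand): tggcgtctgctTTTGGCGCgaaattagcgt
Mcm7 (chr12:22163212-22163241, minus strand): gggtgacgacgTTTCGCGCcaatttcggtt
Cdt1 (chr19:67529270-67529298, plus strand): ggaagtagcttTTTGGCGCcatggcgcag
Gins1 (chr3:160184884-160184913, plus strand): ggttaagcctaTTTGGCGCcaaagagagga
Rfc3 (chr12:5836554-5836583, plus strand): acgtcgcagccTTTCGCGCtcgcgggaaaa
Pole (chr12:52053646-52053675, minus strand): cacatgagagcGCGCCAAAttttcccggga
Lig1 (chr1:83243178-83243207, plus strand): ccaaggtctgcGCGCGAAAtctgtgtggcg
Tyms (chr9:120776102-120776131, minus strand): aaggtgcgggtTTTGGCGCcgactacactg

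The 250 bases upstream of 2 strongly changed members are shown in full, to set a promoter with a palindromic E2F sequence beside one in which the letters searched for were not found.
Gins1 (chr3:160184670-160184919, plus strand): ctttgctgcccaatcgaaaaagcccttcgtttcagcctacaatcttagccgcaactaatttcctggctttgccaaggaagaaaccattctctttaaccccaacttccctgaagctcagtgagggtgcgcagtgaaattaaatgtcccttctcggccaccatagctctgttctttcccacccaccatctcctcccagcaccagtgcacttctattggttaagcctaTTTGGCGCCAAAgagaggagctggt
Tk1 (chr10:103544778-103545027, minus strand): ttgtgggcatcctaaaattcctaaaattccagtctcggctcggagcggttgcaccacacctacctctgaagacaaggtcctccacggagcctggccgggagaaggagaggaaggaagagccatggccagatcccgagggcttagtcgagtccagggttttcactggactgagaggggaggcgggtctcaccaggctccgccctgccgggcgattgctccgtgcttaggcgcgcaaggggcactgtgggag
Members with and without a match overlapped in size of change. At the high dose on day 6 the 14 tested members with an E2F sequence changed by 0.22 to 1.44 (median 0.77, log2) and the 19 with a window but no such sequence by -0.07 to 2.35 (median 0.56), values given as a description only.

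On day 6, lungs of high dose rats held more RNA of most of these genes than lungs of air rats. Of the 40 tested members 34 were higher and 0 lower at an adjusted p under 0.05 (limma, Benjamini-Hochberg over 18420 genes), where 21.0% of genes tested were higher and 15.5% lower. Among all genes called, 57.6% were higher with loess, and 43.5% with median centring, 49% with the scanner's processed signals, 46% in the authors' deposited table and 47.5% in Cy5 alone. The median log2 change was 0.70 for the members and 0.01 for the tested genes together. For 32 members each of the 5 high dose rats lay above each of the 5 air rats, as did 16.8% of tested genes, and 12 members at least doubled, as did 3.74% of tested genes. Pola2, Pole2 and Ccne2 were not well above background in any air rat of day 6 and entered the test only through exposed rats, so their part in these counts is no support. Without them 32 of 37 members were higher. The order of change was led by Rrm2 (8.34-fold), Tk1 (5.1-fold), Chaf1b (3.25-fold), Mcm3 (2.71-fold) and Cdc6 (2.67-fold).

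**Figure D1:**
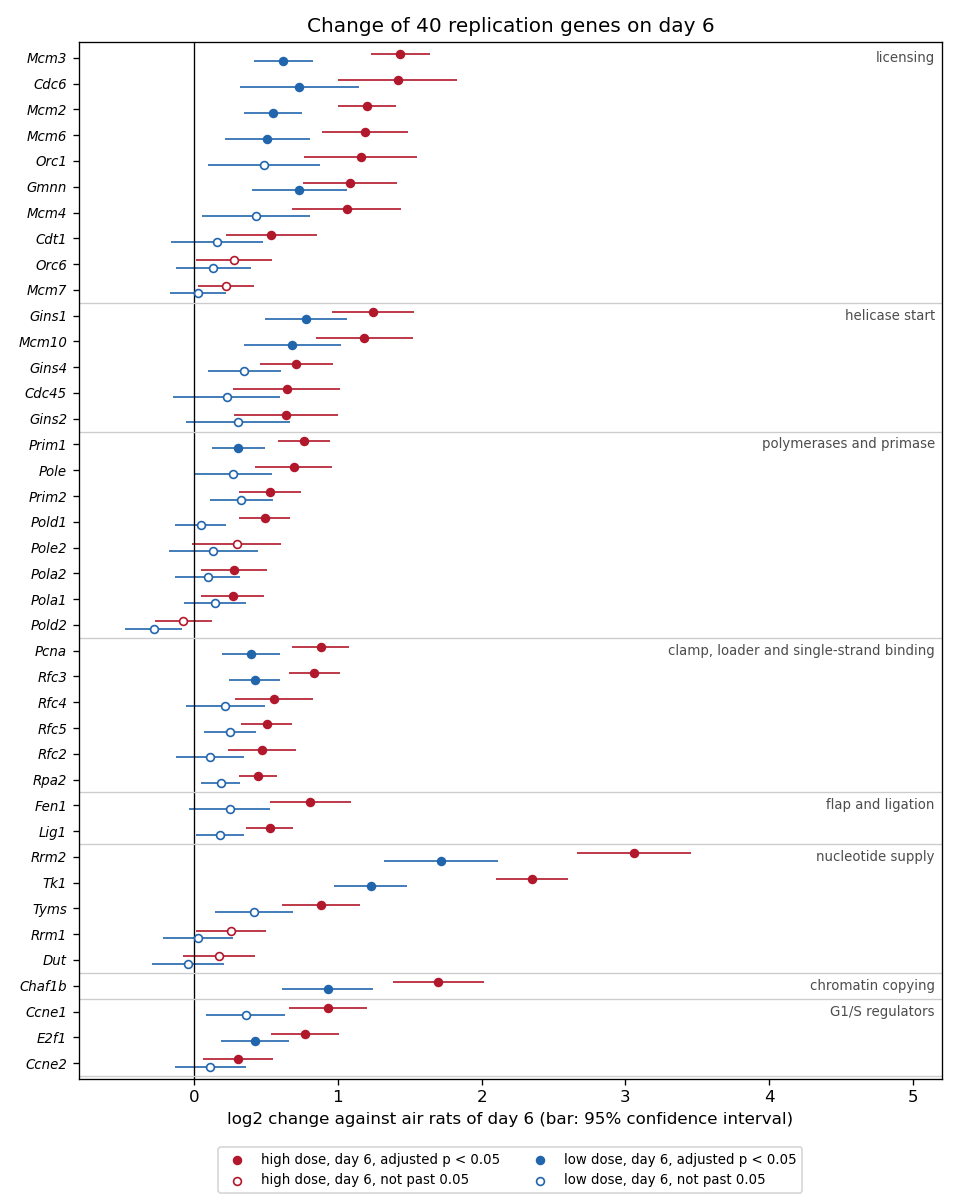
Log2 change of each tested member against the air rats of day 6, grouped by role, for the high dose (red) and the low dose (blue), with bars for the 95% confidence interval and filled points for an adjusted p under 0.05. The red points lie to the right of the blue ones for all 40 members, and Rrm2, Tk1 and Chaf1b stand farthest from 0.

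Nucleotide supply held both the largest changes of the 40 members and some of the smallest. Rrm2 encodes the small subunit of ribonucleotide reductase, which turns ribonucleotides into deoxyribonucleotides and is made mainly in S phase. Its log2 ratio was -4.96, -4.55, -5.01, -5.10 and -4.81 in the air rats, -3.0, -2.77, -4.01, -3.28 and -2.77 in the low dose rats and -2.16, -2.30, -1.75, -1.49 and -1.43 in the high dose rats. The 3 groups did not overlap, and the low dose rats spread more widely than the others, rat 49 being the lowest. The log2 change at the high dose was 3.06 ± 0.19 (SE, n = 5 rats per group), with an adjusted p of 1.18e-12 by limma. Tk1, the thymidine kinase that salvages thymidine in dividing cells, read -3.55, -3.49, -3.79, -3.69 and -3.65 in the air rats, -2.40, -2.15, -2.50, -2.64 and -2.32 in the low dose rats and -1.40, -1.58, -1.25, -1.16 and -1.03 in the high dose rats. Its groups were likewise apart, with a change of 2.35 ± 0.12 (adjusted p = 3.62e-14, limma). Tyms, thymidylate synthase, rose by 0.88 ± 0.13.

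Rrm1 and Dut missed the threshold. Rrm1, the large subunit that works with Rrm2 and varies less over the cell cycle, read -0.79, -1.06, -1.1, -1.04 and -1.09 in the air rats, -0.74, -0.97, -1.05, -0.96 and -1.22 in the low dose rats and -0.82, -0.85, -0.78, -0.69 and -0.65 in the high dose rats. Rat 1 lay above the other air rats and among the high dose rats, and the change of 0.26 ± 0.12 missed the threshold (adjusted p = 0.0898, limma). Dut removes dUTP before it can enter DNA. It read -1.30, -1.24, -1.38, -1.12 and -1.25 in the air rats, -1.09, -1.28, -1.39, -1.37 and -1.35 in the low dose rats and -1.21, -1.11, -1.27, -0.85 and -0.97 in the high dose rats, and the ranges of the 3 groups overlapped. Its change was 0.18 ± 0.12 (95% confidence interval -0.07 to 0.42, adjusted p = 0.273, limma), an interval that lies wholly below the change of Rrm2.

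Among the licensing genes, 8 of 10 rose, 7 of them at least 2-fold. Mcm3, a subunit of the hexameric Mcm2-7 helicase, changed most. It read -2.39, -2.39, -2.15, -2.16 and -2.48 in the air rats, -1.66, -1.57, -1.90, -1.55 and -1.78 in the low dose rats and -1.03, -0.90, -0.90, -0.73 and -0.84 in the high dose rats, so the 3 groups were apart and the high dose rats were close together. The change was 1.44 ± 0.10 (adjusted p = 8.35e-12, limma). The helicase subunits Mcm2, Mcm6 and Mcm4 rose by 1.2 ± 0.10, 1.19 ± 0.14 and 1.06 ± 0.18. The loading factor Cdc6 rose by 1.42 ± 0.20, Orc1, the largest subunit of the origin recognition complex, by 1.16 ± 0.19, geminin by 1.09 ± 0.16 and its target Cdt1 by 0.54 ± 0.16.

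Mcm7, the helicase subunit whose gene also hosts a microRNA cluster in mammals, had the smallest change of its role. It read -1.14, -1.29, -1.32, -1.28 and -1.07 in the air rats, -1.04, -1.21, -1.13, -1.30 and -1.27 in the low dose rats and -0.94, -1.09, -1.15, -0.84 and -0.96 in the high dose rats. The groups overlapped, and the change of 0.22 ± 0.09 missed the threshold (adjusted p = 0.0648, limma). Its promoter carries the E2F sequence printed above. Orc6, the smallest subunit of the origin recognition complex, read -1.33, -1.56, -1.22, -1.05 and -1.07 in the air rats, -1.33, -0.79, -1.14, -1.09 and -1.21 in the low dose rats and -0.77, -1.09, -0.84, -1.12 and -1.02 in the high dose rats. These values overlapped as well, at a change of 0.28 ± 0.13 (adjusted p = 0.0912, limma). The measured changes of subunits of this 1 hexamer ran from 0.22 for Mcm7 to 1.44 for Mcm3, with 95% confidence intervals of 0.03 to 0.42 and 1.23 to 1.64.

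All 5 tested helicase-start genes rose. Gins1, a subunit of the GINS complex, whose promoter is printed above, read -2.72, -2.51, -2.70, -2.73 and -2.79 in the air rats, -1.83, -1.51, -2.49, -2.16 and -1.56 in the low dose rats and -1.48, -1.46, -1.58, -1.32 and -1.40 in the high dose rats. The low dose rats spread over the gap between the other groups, with rat 49 next to the air rats and rats 48 and 51 among the high dose rats. Its change was 1.24 ± 0.14 (adjusted p = 4.87e-08, limma). The smallest change was in Gins2, at 0.64 ± 0.18, with -1.70, -1.61, -1.91, -1.95 and -1.70 in the air rats, -1.34, -1.28, -1.68, -1.40 and -1.63 in the low dose rats and -1.15, -1.19, -1.05, -1.09 and -1.18 in the high dose rats. Here the high dose rats were apart from both other groups, and low dose rats 49 and 51 lay among the air rats. Mcm10, which helps to start the helicase, rose by 1.18 ± 0.17, Gins4 by 0.71 ± 0.12 and Cdc45, which rides on the Mcm ring, by 0.65 ± 0.18.

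**Figure D2:**
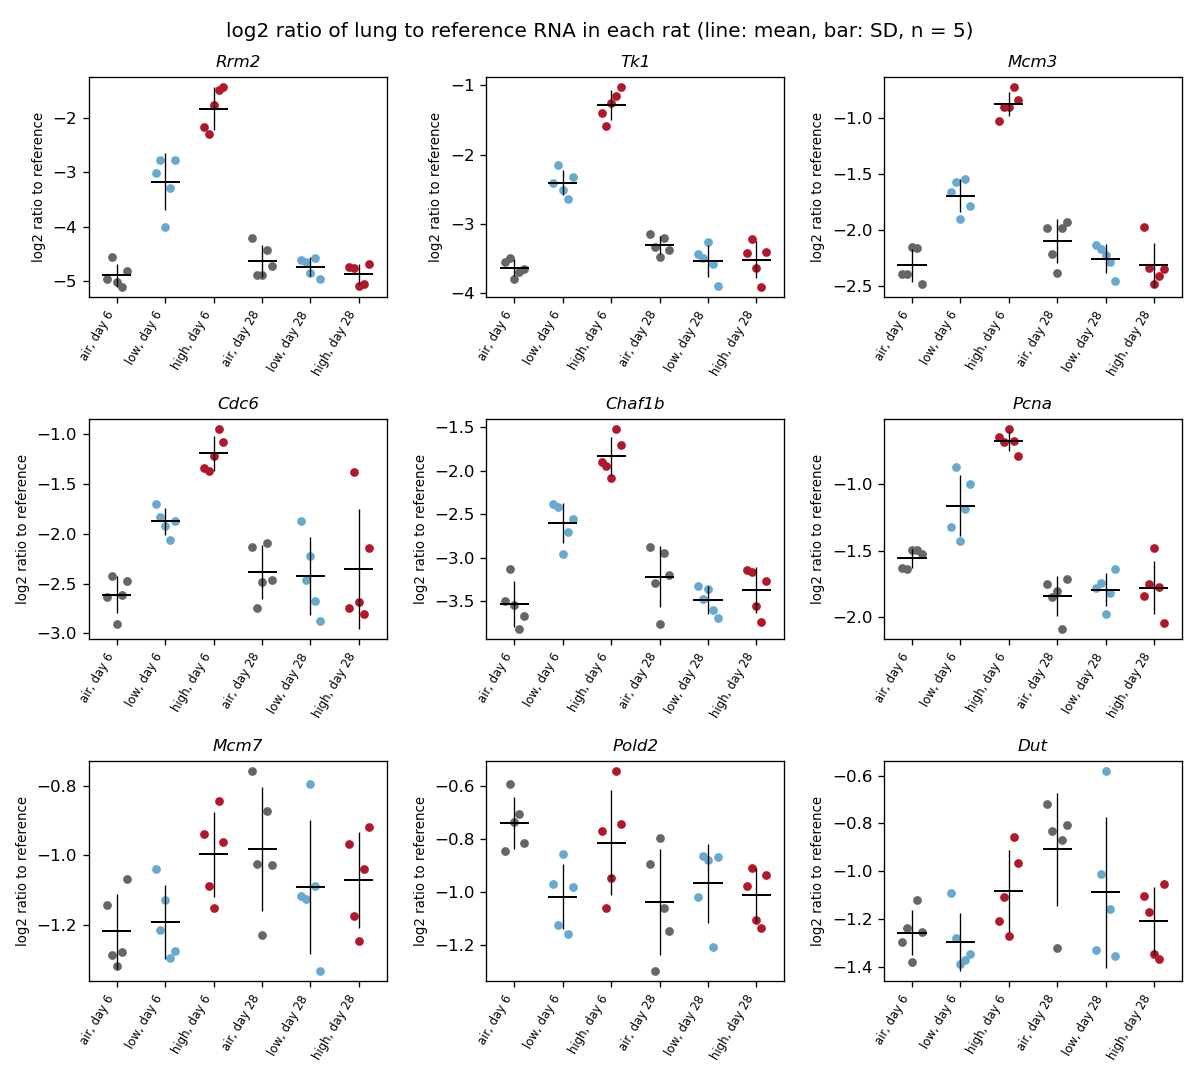
Log2 ratio of lung over reference RNA in each rat for 9 members across the 6 groups, with the group mean (line) and SD (bar, n = 5). Rrm2, Tk1, Mcm3 and Chaf1b step up from air to low to high dose on day 6 and overlap on day 28, whereas for Mcm7 and Dut the groups overlap on both days.

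Of the 6 polymerase and primase genes that were also above background in air rats, 5 rose. Prim1, the catalytic primase subunit, read -1.87, -1.58, -2.04, -2.04 and -2.09 in the air rats, -1.62, -1.40, -1.78, -1.75 and -1.53 in the low dose rats and -1.11, -1.09, -1.26, -1.16 and -1.16 in the high dose rats, and changed by 0.77 ± 0.09 (adjusted p = 8.54e-08, limma). Each high dose rat lay above each rat of the other groups. Pole, the catalytic subunit of the leading-strand polymerase, rose by 0.69 ± 0.13, Prim2, the large primase subunit, by 0.53 ± 0.11, and Pold1, the catalytic subunit of polymerase delta, by 0.49 ± 0.09. Pola1, the catalytic subunit of the polymerase alpha that works with primase, changed by 0.27 ± 0.11. Its partner Pola2 was not above background in air rats, and its mean normalized Cy5 signal was 1.22-fold higher by the bound explained below. The adjusted p-values of Pola1 and Pola2, 0.0467 and 0.0496 (limma), were close to the threshold. Leaving out 1 rat ended the call in 11 of 30 cases for Pola1 and in 24 of 30 for Pola2.

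Pold2, the second subunit of polymerase delta, was the one tested member with a lower mean at the high dose. It read -0.85, -0.59, -0.74, -0.71 and -0.82 in the air rats, -0.97, -1.13, -0.86, -1.16 and -0.98 in the low dose rats and -0.77, -1.06, -0.95, -0.55 and -0.74 in the high dose rats. All low dose rats lay below all air rats, whereas the high dose rats spanned both, and neither change passed the threshold (-0.28 ± 0.10 and -0.07 ± 0.10, adjusted p = 0.0835 and 0.59, limma). Pole2, the second subunit of polymerase epsilon, read -1.23, -1.16, -1.38, -1.31 and -1.15 in the air rats, -1.03, -1.03, -1.25, -1.16 and -1.09 in the low dose rats and -0.90, -0.77, -1.12, -0.99 and -0.96 in the high dose rats. Its high dose rats lay above its air rats, but the signal was not well above background in any air rat and in 3 of 5 high dose rats it was. In normalized Cy5 signal the mean of Pole2 was 1.26-fold higher by a bound, with an adjusted p of 0.129 for the ratio (limma). That test passed the threshold in 5 of 9 other processing settings. Such a bound compares the bright group's mean with a floored signal of the dim group. On each array of the dim group this was the higher of the gene's own signal and the lowest signal among probes above background. The bound allows for signal near background but not for the spread between rats, so it is no minimum of the change. Its Cy5 signal was normalized together with the reference channel, unlike the Cy5 signal alone used elsewhere.

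The clamp, its loader and the single-strand binding protein rose in all 6 tested genes, by 0.45 to 0.88. Pcna, the sliding clamp, read -1.63, -1.64, -1.50, -1.49 and -1.52 in the air rats, -1.32, -0.87, -1.43, -1.18 and -1.0 in the low dose rats and -0.65, -0.68, -0.59, -0.67 and -0.79 in the high dose rats. The high dose rats lay within a narrow range above both other groups, and the change was 0.88 ± 0.10 (adjusted p = 4.81e-08, limma). Rpa2, a subunit of the single-strand binding protein, changed least, at 0.45 ± 0.07, and read -1.25, -1.32, -1.54, -1.41 and -1.47 in the air rats, -1.23, -1.1, -1.30, -1.28 and -1.15 in the low dose rats and -1.05, -0.87, -0.98, -0.93 and -0.94 in the high dose rats. The clamp loader genes Rfc3, Rfc4, Rfc5 and Rfc2 rose by 0.84 ± 0.09, 0.56 ± 0.13, 0.51 ± 0.09 and 0.47 ± 0.12.

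Both tested genes that finish the lagging strand rose. Fen1, the flap endonuclease, read -1.83, -1.72, -1.68, -1.85 and -1.71 in the air rats, -1.17, -1.55, -1.78, -1.57 and -1.47 in the low dose rats and -1.19, -1.15, -0.93, -0.74 and -0.73 in the high dose rats. The change was 0.81 ± 0.14 (adjusted p = 2.78e-05, limma), and low dose rat 47 lay just above the lowest high dose rat. Lig1, the ligase that seals the fragments, changed by 0.53 ± 0.08 and read -1.18, -1.1, -1.46, -1.19 and -1.24 in the air rats, -0.94, -1.09, -0.94, -1.24 and -1.06 in the low dose rats and -0.70, -0.80, -0.87, -0.54 and -0.62 in the high dose rats. Every high dose rat lay above every air rat for both genes.

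Chaf1b was the only tested gene of chromatin copying, and encodes a subunit of the assembly factor that places histones on new DNA. It read -3.50, -3.13, -3.55, -3.82 and -3.67 in the air rats, -2.39, -2.42, -2.96, -2.70 and -2.55 in the low dose rats and -1.91, -1.94, -2.09, -1.52 and -1.71 in the high dose rats, in 3 groups without overlap, and changed by 1.70 ± 0.15 (adjusted p = 1.13e-09, limma). Of the regulators of S phase entry, Ccne1 and E2f1 rose at the high dose, and Ccne2 was above background in 4 high dose rats and in no air rat. Ccne1, cyclin E1, read -2.46, -2.55, -2.73, -2.69 and -2.43 in the air rats, -2.01, -2.20, -2.42, -2.16 and -2.27 in the low dose rats and -1.78, -1.76, -1.84, -1.40 and -1.42 in the high dose rats, a change of 0.93 ± 0.13 (adjusted p = 2.92e-06, limma). E2f1, itself an E2F factor, rose by 0.77 ± 0.11. Ccne2, cyclin E2, read -0.66, -0.95, -0.91, -0.88 and -0.73 in the air rats, -0.85, -0.57, -0.94, -0.64 and -0.55 in the low dose rats and -0.50, -0.38, -0.23, -0.60 and -0.87 in the high dose rats. High dose rat 79 lay among the air rats, and the adjusted p of 0.0432 (limma) was near the threshold. By the bound explained for Pole2, the mean normalized Cy5 signal of Ccne2 was 1.29-fold higher than in the air rats, where it was not well above background. Leaving out 1 rat ended its call in 6 of 30 cases.

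At the low dose on day 6, 14 of 40 tested members were higher and 0 lower, where 4.96% of tested genes were higher and 1.75% lower. The median log2 change was 0.31, and 17 members had all low dose rats above all air rats (5.35% of tested genes), and 1, Pold2, had them all below (2.22%). The 14 were Rrm2 (1.72 ± 0.19), Tk1 (1.23 ± 0.12), Chaf1b (0.93 ± 0.15), the helicase-start genes Gins1 (0.78 ± 0.14) and Mcm10 (0.69 ± 0.17), the licensing genes Cdc6, Gmnn, Mcm3, Mcm2 and Mcm6 (0.51 to 0.73), and Rfc3, E2f1, Pcna and Prim1 (0.31 to 0.43). Adjusted p-values ran from 7.2e-08 for Tk1 to 0.0298 for Prim1 (limma). The call of Prim1 or Mcm6 was lost in 5 of 30 cases when 1 rat was left out, that of E2f1 in 3, Cdc6 in 2 and Pcna in 1, and without low dose rat 48 the count fell to 10. With each array centred on its median in place of loess it was 7. Tyms came close, at 0.42 ± 0.13 (adjusted p = 0.0517, limma), with all low dose rats above all air rats. Mcm7, Rrm1, Dut and Pold1 were within -0.04 to 0.05 of the air rats.

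The doses, which differed 4-fold, also differed from each other. High dose rats had the higher mean for 40 of 40 members, 23 of them past the threshold and 0 lower (8.01% of tested genes higher, 3.85% lower), with a median of 0.39, and for 20 members each high dose rat lay above each low dose rat (5.87% of tested genes, and 3.05% the other way). Rrm2 was 1.34 ± 0.19 higher at the high than at the low dose, Tk1 1.12 ± 0.12, Mcm3 0.81 ± 0.10 and Chaf1b 0.77 ± 0.15. Pold1, which had not moved at the low dose, was 0.45 ± 0.09 higher at the high dose (adjusted p = 0.000773, limma). Geminin was among the members whose doses were not told apart, at 0.35 ± 0.16 (adjusted p = 0.168, limma). Without high dose rat 78, high dose rat 79 or low dose rat 49 the count of 23 fell to 14, and with median centring it was 9. The calls of E2f1 and Mcm10 were lost in 20 and 17 of 30 cases when 1 rat was left out.

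**Figure D3:**
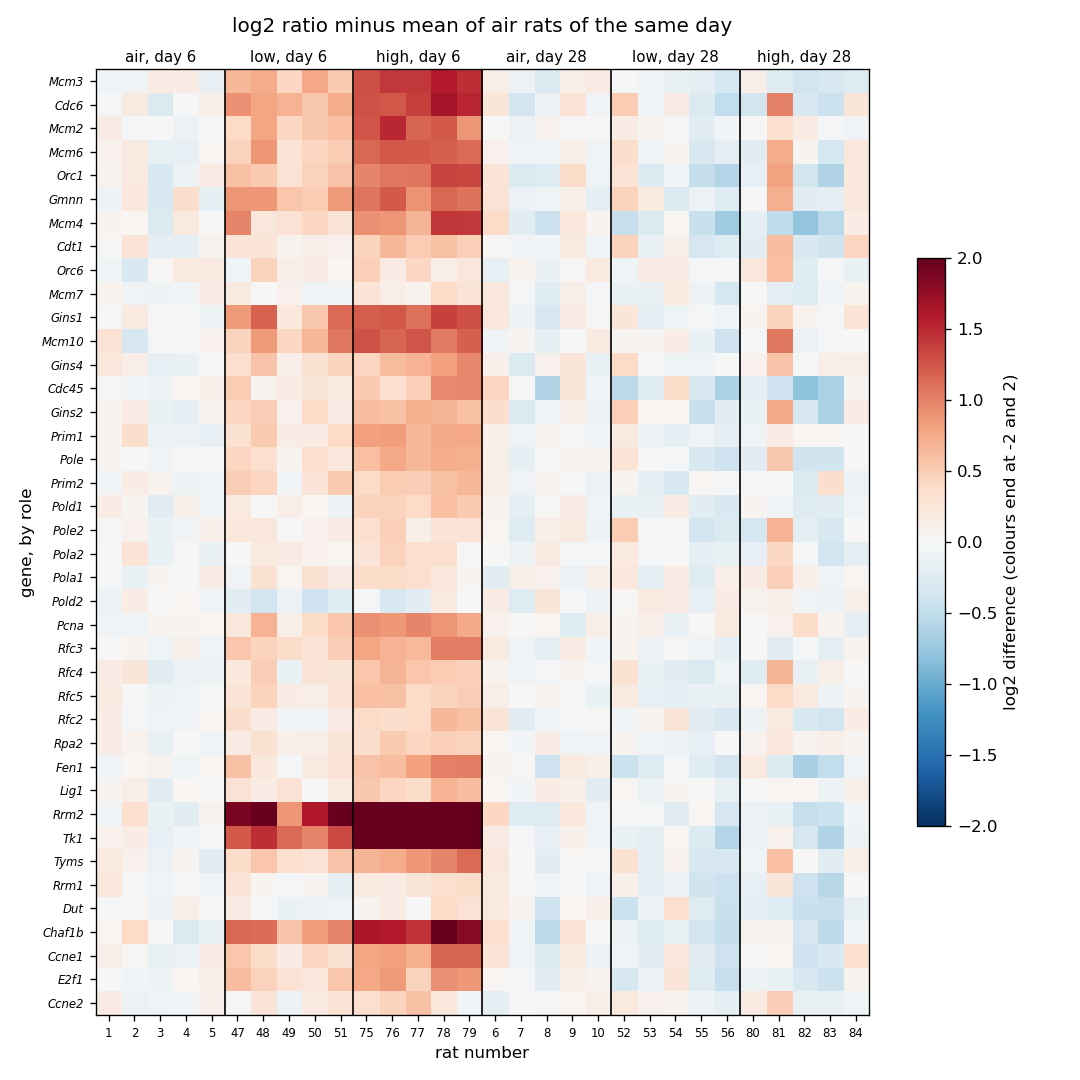
Log2 ratio of each tested member (rows, by role) in each of the 30 rats (columns), minus the mean of the air rats of the same day, red above and blue below 0. Day 6 shows red in most rows for the low and more so for the high dose rats, and day 28 shows none shared by an exposed group, apart from rat 81, which is red in many rows. In Cy5 signal alone the median difference of rat 81 from its group was 0.02 over the 40 members.

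Single rats held to their groups. The median over the 40 members, against the air mean of day 6, was 0.61 to 0.79 in the 5 high dose rats, 0.15 to 0.45 in the low dose rats and -0.11 to 0.07 in the air rats. Arrays came on 4 slides. Compared within each slide, the median high dose change was 0.63, 0.73, 0.66 and 0.74 on slides 1 to 4, with 38 or 39 of 40 members above 0 on each, and the low dose change 0.41, 0.32, 0.28 and 0.34. These values lie around the medians over all slides, 0.70 and 0.31. On day 28 the high dose median was 0.28, -0.07 and 0.04 on slides 1, 2 and 4, and slide 3 held no air rat of that day. With slide as a block in the fit, 37 members were called at the high dose and 21 at the low dose.

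Genes with a second probe gave a check of size. The probe not chosen, which was dimmer in each case, changed by 0.70 for Mcm2 against 1.2, by 1.23 for Mcm3 against 1.44, by 1.73 for Rrm2 (above background on 13 of 30 arrays) against 3.06 and by 0.81 for E2f1 against 0.77. All 4 second probes passed the threshold (adjusted p = 0.00353, 4.32e-11, 2.16e-06 and 0.000404, limma over all kept probes). For Mcm4 the second probe, well above background on 5 of 30 arrays, did not (0.24 against 1.06, adjusted p = 0.121), so the change of Mcm4 rests on 1 probe. The probes that differed most from the chosen ones, those of Rrm2 and Mcm4, were thus near background on many arrays. At the low dose the dimmer probe of Mcm3 passed the threshold (0.50), and those of Mcm2 (0.28), Rrm2 (0.75) and E2f1 (0.47) did not (adjusted p = 0.421, 0.0599 and 0.0993, limma).

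On day 28 the replication genes of exposed and air rats were not told apart. At the high dose 0 of 40 members passed the threshold by limma in either direction (0.0760% of tested genes higher, 0.109% lower), 3 at an unadjusted p under 0.05, and the median change was -0.02. Those 3 were Cdc45 (-0.40 ± 0.18), Dut (-0.30 ± 0.12) and Mcm3 (-0.21 ± 0.10), each lower than in air rats. The dimmer probe of Mcm3, above background on all 30 arrays, changed by 0.006 (unadjusted p = 0.953, limma). At the low dose 0 of 40 passed by limma and 0 at an unadjusted p under 0.05 (0% and 0.0109% of tested genes), with a median of -0.07 (0.07 with median centring). Between the doses 0 passed by limma (0.0706% of tested genes each way) and 2 at an unadjusted p under 0.05. No member passed on day 28 in any of the 9 other processing settings tried, nor with any 1 rat left out.

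The members that led on day 6 overlapped with the air rats on day 28. Rrm2 read -4.21, -4.88, -4.88, -4.42 and -4.71 in air, -4.61, -4.64, -4.84, -4.58 and -4.96 in low dose and -4.74, -4.76, -5.08, -5.04 and -4.67 in high dose rats. The log2 ratio of Tk1 was -3.15, -3.33, -3.47, -3.21 and -3.38 in air, -3.43, -3.49, -3.27, -3.58 and -3.90 in low dose and -3.42, -3.21, -3.64, -3.91 and -3.41 in high dose rats. The change at the high dose was -0.24 ± 0.19 (95% confidence interval -0.64 to 0.16) for Rrm2 and -0.21 ± 0.12 (-0.46 to 0.04) for Tk1, so both intervals lie below the changes of day 6. Chaf1b read -2.88, -3.29, -3.76, -2.94 and -3.21 in air, -3.32, -3.48, -3.36, -3.60 and -3.70 in low dose and -3.14, -3.17, -3.56, -3.74 and -3.27 in high dose rats. That of Mcm3 was -1.98, -2.21, -2.39, -1.98 and -1.93 in air, -2.14, -2.17, -2.22, -2.29 and -2.46 in low dose and -1.97, -2.34, -2.48, -2.41 and -2.35 in high dose rats. The upper end of the 95% confidence interval of the high dose change was 0.16 for Chaf1b and -0.01 for the chosen probe of Mcm3, again below their changes on day 6.

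Genes of the fork, the clamp and cyclin E1 overlapped between groups in the same way on day 28. Gins1 read -2.36, -2.69, -2.93, -2.43 and -2.56 in air, -2.35, -2.79, -2.67, -2.62 and -2.68 in low dose and -2.54, -2.14, -2.52, -2.61 and -2.32 in high dose rats. For Pcna the values were -1.75, -1.85, -1.80, -2.09 and -1.71 in air, -1.78, -1.75, -1.98, -1.82 and -1.64 in low dose and -1.84, -1.75, -1.48, -1.77 and -2.04 in high dose rats. For Prim1 they were -1.89, -2.08, -1.94, -2.03 and -2.06 in air, -1.82, -2.11, -2.19, -2.07 and -2.19 in low dose and -2.07, -1.85, -1.96, -1.96 and -2.0 in high dose rats. All 3 of these genes had called changes on day 6. Fen1 read -1.22, -1.26, -1.71, -1.1 and -1.17 in air, -1.72, -1.56, -1.31, -1.54 and -1.65 in low dose and -1.1, -1.57, -1.94, -1.79 and -1.36 in high dose rats. Ccne1 read -2.03, -2.37, -2.60, -2.11 and -2.43 in air, -2.38, -2.54, -2.08, -2.52 and -2.72 in low dose and -2.28, -2.27, -2.71, -2.61 and -1.99 in high dose rats. Air rat 8 was the lowest air rat for both. Lig1 read -1.26, -1.35, -1.16, -1.21 and -1.54 in air, -1.27, -1.40, -1.24, -1.31 and -1.44 in low dose and -1.30, -1.27, -1.26, -1.40 and -1.21 in high dose rats. Rpa2 read -1.54, -1.63, -1.43, -1.65 and -1.65 in air, -1.53, -1.66, -1.68, -1.74 and -1.57 in low dose and -1.51, -1.36, -1.52, -1.48 and -1.52 in high dose rats. For Rpa2 each high dose rat lay above each low dose rat, as did 0.250% of tested genes, at a difference that did not pass the threshold.

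Members that had missed the threshold on day 6, and those with the smallest changes of their role, also overlapped. Mcm7 read -0.76, -1.02, -1.23, -0.87 and -1.03 in air, -1.12, -1.13, -0.79, -1.09 and -1.33 in low dose and -0.97, -1.18, -1.25, -1.04 and -0.92 in high dose rats. Dut read -0.72, -0.83, -1.32, -0.87 and -0.81 in air, -1.33, -1.01, -0.58, -1.16 and -1.36 in low dose and -1.1, -1.17, -1.35, -1.37 and -1.05 in high dose rats. Pold2 read -0.90, -1.30, -0.80, -1.06 and -1.15 in air, -1.02, -0.87, -0.88, -1.21 and -0.87 in low dose and -0.98, -0.91, -1.11, -1.13 and -0.94 in high dose rats. Air rat 8 was the lowest air rat for Mcm7 and Dut and the highest for Pold2. Rrm1 read -0.53, -0.72, -0.78, -0.72 and -0.80 in air, -0.60, -0.91, -0.83, -1.1 and -1.13 in low dose and -0.88, -0.46, -1.13, -1.27 and -0.70 in high dose rats. Orc6 read -1.33, -1.1, -1.30, -1.14 and -0.98 in air, -1.26, -1.03, -1.01, -1.22 and -1.21 in low dose and -0.95, -0.57, -1.42, -1.21 and -1.32 in high dose rats. Gins2 read -1.26, -1.90, -1.68, -1.51 and -1.73 in air, -1.15, -1.58, -1.57, -2.06 and -1.84 in low dose and -1.76, -0.86, -1.92, -2.26 and -1.46 in high dose rats. High dose rat 81 was the highest of its group for all 3. Pole2 read -1.12, -1.42, -1.02, -0.99 and -1.26 in air, -0.66, -1.2, -1.18, -1.55 and -1.45 in low dose and -1.52, -0.47, -1.36, -1.49 and -1.17 in high dose rats. Ccne2 read -1.03, -0.82, -0.81, -0.78 and -0.69 in air, -0.63, -0.73, -0.76, -0.92 and -1.0 in low dose and -0.64, -0.33, -0.96, -0.97 and -0.91 in high dose rats. Neither Pole2 nor Ccne2 was well above background in any rat of day 28, so these values carry no order.

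The effects on the 2 days were also tested against each other. The high dose change was smaller on day 28 than on day 6 for 28 of 40 members and larger for 0 (11.2% of tested genes lower, 5.49% higher), with a difference of -3.30 ± 0.27 for Rrm2 (adjusted p = 1.09e-09), -2.56 ± 0.17 for Tk1 (adjusted p = 3.67e-11) and -1.86 ± 0.22 for Chaf1b (adjusted p = 4.3e-07, limma). Among the 34 members called at the high dose on day 6, the difference between days was not past the threshold for Cdt1, Gins2, Pola1, Pola2, Rfc4 and Ccne2. In each of these, high dose rat 81 was the highest of its group on day 28. Without that rat the difference passed the threshold for 34 of 40 members in place of 28. At the low dose the change was smaller on day 28 for 8 members, namely Rrm2, Tk1, Chaf1b, Gins1, Mcm3, Mcm2, E2f1 and Rfc3 (1.66% of tested genes lower, 0.309% higher). That count fell to 5 without air rat 6, low dose rat 51 or low dose rat 55, and was 2 with median centring and 14 with the scanner's processed signals. The dimmer probes of Mcm3 (-0.48), Mcm2 (-0.31), Rrm2 (-0.84) and E2f1 (-0.68) did not pass for this low dose difference. Their adjusted p-values were 0.053, 0.825, 0.333 and 0.210 (limma over all kept probes). At the high dose the dimmer probes of Mcm3, Rrm2 and E2f1 passed, and those of Mcm2 (-0.67, adjusted p = 0.0773) and Mcm4 (-0.30, adjusted p = 0.258, limma) did not.

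**Figure D4:**
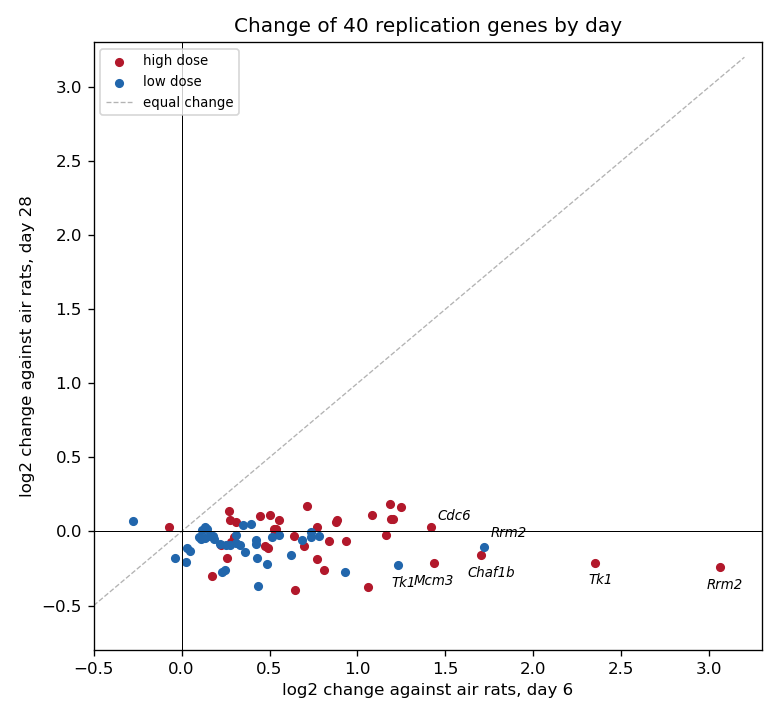
Log2 change of each tested member against the air rats of day 6 (horizontal) and of day 28 (vertical), for the high dose (red) and the low dose (blue), with a dashed line where both would be equal. The points spread along the horizontal axis to 3.06 for Rrm2 and stay between -0.40 and 0.18 on the vertical axis.

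Air rats also differed somewhat between days. The mean was higher on day 28 for 31 of 40 members (median 0.17, but 0.0398 with median centring and 0.0385 in Cy5 alone), 14 at an unadjusted p under 0.05, and E2f1 alone passed the threshold (0.42 ± 0.11, adjusted p = 0.0415, limma, where 1.87% of tested genes were higher and 1.09% lower). E2f1 read -1.30, -1.34, -1.38, -1.24 and -1.17 in air rats of day 6 and -0.82, -0.88, -1.08, -0.73 and -0.80 in those of day 28, without overlap. That call was lost when any 1 of air rats 1 to 7, 9 or 10 was left out, and 8 members passed without air rat 8. The dimmer probe of E2f1, above background on all 30 arrays, did not pass (0.28, adjusted p = 0.310, limma over all kept probes). For 2 members, E2f1 and Tk1, all air rats of day 28 lay above all of day 6 (3.74% of tested genes), and for Pcna all lay below (2.66%), at -0.28 ± 0.10 (adjusted p = 0.0899, limma). The 2 days have separate air groups, so each exposed group was set against its own day.

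High dose rat 81 of day 28 was highest of its group for 25 of 40 members. Low dose rat 52 of that day was highest of its group for 24 and air rat 6 for 20. In log2 ratio rat 81 exceeded the mean of rats 80, 82, 83 and 84 by a median of 0.70 over the 20 dimmer members and of 0.04 over the 20 brighter ones. In Cy5 signal alone, read without the reference channel, the same medians were -0.01 and 0.03. Over tested genes dimmer than the median member, rat 81 differed from its group by -0.01 in ratio and by -0.006 in Cy5 alone. The dim members thus stood out from dim genes at large in ratio only, and not in Cy5 signal alone. What raised the ratios of rat 81 was not tested. Without this rat the high dose median of day 28 was -0.09 and 0 members were called, and on day 6, to which it contributes only through the spread shared by all groups, 36 members were called at the high dose.

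**Figure D5:**
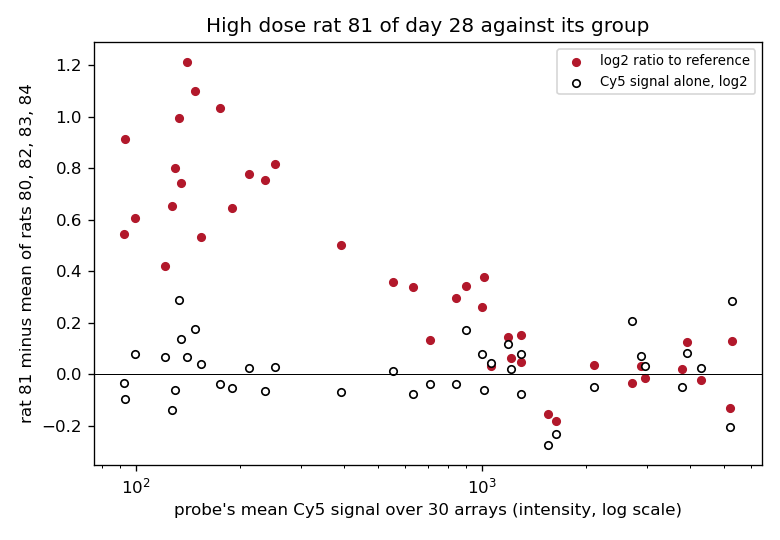
Difference between high dose rat 81 of day 28 and the mean of the 4 other rats of its group (vertical, log2) for each tested member, against the mean Cy5 intensity of its probe (horizontal, log scale). Filled points show the ratio to the reference, which rises to 1.21 for dim probes, and open points show Cy5 alone, which lie between -0.28 and 0.29.

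Other genes of the same processes, listed by name and with earlier results of these data known, had smaller median changes. Of 21 tested replication genes outside the list 11 were higher and 1 lower at the high dose on day 6, with a median of 0.30, where 21.0% of all tested genes were higher and 15.5% lower. The largest changes were in Chtf18, a clamp loader subunit (0.76), Dbf4, the activator of the Cdc7 kinase (0.68), and Mcm8, a relative of the Mcm subunits (0.66), and the fall was in Rfc1, the large loader subunit (-0.31 ± 0.12, adjusted p = 0.0413, limma). Of 27 further nucleotide genes 12 were higher and 0 lower (median 0.22), among them the pyrophosphatase Dctpp1 (1.45) and the deaminase Dctd (0.91). Of 25 regulators of S phase and histone supply 9 were higher and 3 lower (median 0.17), the latter a share under that of all tested genes. Ccna2, cyclin A2 (2.15), and the histone chaperones Asf1b (1.49) and Nasp (0.68) led, and Tfdp2, a partner of E2F (-0.36), Rbl2, a pocket protein (-0.28), and the chaperone Asf1a (-0.27) fell. At the low dose 0, 3 and 3 genes of these lists were higher by limma (5 of the first list at an unadjusted p under 0.05), where 4.96% of all tested genes were, among them Dctpp1 (0.77), Tymp (0.40), Ccna2 (1.1), Asf1b (0.75) and Nasp (0.32). Asf1a and Asf1b, which are paralogs, moved in opposite directions at the high dose.

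Most markers of dividing cells, and at the high dose most of those of T cells, macrophages and neutrophils, were higher on day 6, as the members were. At the high dose on day 6, 15 of 16 tested mitosis genes were higher (10 at the low dose), with a summed Cy5 signal of 4337 to 5360 in air, 6680 to 9375 in low dose and 13170 to 16040 in high dose rats. Cenpa was not well above background in air rats. On day 28 that sum was 5077 to 6800 in air, 5042 to 6009 in low dose and 4637 to 6442 in high dose rats. T cell markers gave 11 of 12 higher (summed signal 4039 to 6158, 4716 to 7931 and 5715 to 9500, Ctla4 not above background in air rats). Macrophage and monocyte markers gave 13 of 15 higher, with overlapping summed signals of 168400 to 227100, 147800 to 240700 and 174800 to 247800, and Marco not above background at the high dose. Neutrophil markers gave 6 of 8 higher, from 2288 to 3855 in air to 11740 to 20790 and 11770 to 37100 in exposed rats. At the low dose 1 of 12 T cell, 6 of 15 macrophage and 5 of 8 neutrophil markers were higher (4.96% of tested genes). Between the doses 15 of 16 mitosis genes were higher at the high dose (8.01% of tested genes). For T cell, macrophage and neutrophil markers that count was 2 of 12, 7 of 15 and 1 of 8. Alveolar type I markers gave 5 of 7 lower (291800 to 462600 in air, 300000 to 338200 and 192100 to 280500 in exposed rats), and endothelial markers 3 of 7 lower (65140 to 81770, 55840 to 67280 and 34800 to 64270). Beside 21.0% of all tested genes higher and 15.5% lower, the counts were 2 of 5 higher for B cell, 3 of 7 higher and 1 lower for fibroblast, 2 of 9 higher and 1 lower for type II, 2 of 5 lower for basal and 1 of 7 lower for airway markers, counts too small to be read as a result about these cells. The part of these cells in the change of the replication genes was not tested. Heart muscle markers reached 443600 in 1 air rat of day 6, rat 4, and 37020 at most in the low dose and 5121 in the high dose rats of that day, with 0 of 8 called by limma and 2 at an unadjusted p under 0.05. Without air rat 4, 31 members were called at the high dose.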

How the data were processed

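Agilent 2-colour arrays measured lung RNA of 30 rats (200 ng, RNA integrity number above 7). The deposited scanner files hold spot and background intensities, made with Feature Extraction 11.0.1.1 per the file headers. A deposited table of log2 ratios, for which no label or header names the processing, correlated at 0.997 or more with loess ratios made without background correction. The labels call the reference RNA rat, from 14 cell lines, and in the labelling protocol mouse.

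Median intensities were corrected with normexp (offset 50), and log2 ratios normalized by loess within each array. Control spots were left out, spots of a probe averaged, and a probe was kept if at least 5 of 30 arrays showed Cy5 well above background. The brightest probe stood for its gene. With 18420 genes kept, 6 groups were fitted together in limma 3.58.1 (R 4.3.3), 9 contrasts were tested, and p-values adjusted by Benjamini-Hochberg over all genes kept. The steps were tested on simulated data. The 5 rats of a group limit the precision: over all genes kept, the median SE of the high dose change on day 6 was 0.115.

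Genes were named through RefSeq, and 11331 of the genes kept had a symbol. Values by rat are given, by rule, for the members of each role with the largest and smallest high dose change on day 6 and for those that missed the threshold there; Tk1 and, for air rats, E2f1 were added after their values were seen. Some genes of the further lists are counted but not reported by name here. Members and lists were chosen with earlier results of these data known. Alternatives were no background correction, median centring, the scanner's processed signals, the deposited table, Cy5 alone, no filter, slide as a block, only the compared groups, averaged probes and each rat left out.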

Additional observations from a re-analysis of the deposited data

Results flagged for a closer look

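The effect of exposure differed between the days, by the test of the difference itself (limma, adjusted p under 0.05), for 28 members at the high dose and 8 at the low dose. The high dose change of day 28 minus that of day 6, on the log2 scale, was lower in licensing, helicase, polymerase, clamp and nucleotide genes alike: Rrm2 (-3.30), Tk1 (-2.56), Chaf1b (-1.86), Mcm3 (-1.65), Mcm4 (-1.44), Cdc6 (-1.39), Orc1 (-1.18), Mcm2 (-1.12), Mcm6 (-1.11), Gins1 (-1.08), Fen1 (-1.07), Cdc45 (-1.04), Mcm10 (-1.0), Ccne1 (-1.0), Gmnn (-0.97), E2f1 (-0.96), Rfc3 (-0.90), Pcna (-0.82), Tyms (-0.80), Pole (-0.79), Prim1 (-0.74), Pold1 (-0.60), Rfc2 (-0.57), Prim2 (-0.55), Gins4 (-0.54), Lig1 (-0.51), Rfc5 (-0.39) and Rpa2 (-0.34). At the low dose the differences were Rrm2 (-1.83), Tk1 (-1.46), Chaf1b (-1.20), Gins1 (-0.81), Mcm3 (-0.78), E2f1 (-0.61), Mcm2 (-0.57) and Rfc3 (-0.48). The air rats enter each of these differences on both days.

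A rat stood apart from the other 4 of its group, by a gap of over 0.71 of the group's range, in 9 of 240 combinations of member and group (3.75%), where chance gives about 1 in 20. High dose rat 80 of day 28 was highest for Mcm3 (log2 ratio -1.97), and high dose rat 81 of day 28 for Mcm10 (-1.24) and Rpa2 (-1.36). Low dose rat 52 of day 28 was highest for Gins4 (-2.03) and Rfc5 (-1.52). Low dose rat 47 of day 6 was highest for Mcm4 (-1.27), and air rat 1 of day 6 for Rrm1 (-0.79). Air rat 8 of day 28 was lowest for Fen1 (-1.71) and Dut (-1.32).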

How the results depend on the processing

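No called result reversed under the alternatives run. At the high dose on day 6 the count of higher members stayed between 31 and 36 with 1 rat left out, and on day 28 it was 0 with any rat left out. Median centring in place of loess gave 7 members at the low dose on day 6, 9 between doses on day 6, 0 in air rats between days and 2 for the low dose effect between days. It put the median of the members at 0.068 for the low dose on day 28, 0.0398 for air rats between days and -0.22 for the low dose effect between days, while the median of all tested genes moved to 0.11, -0.11 and 0.147, and to -0.15 between doses on day 28. The first of these medians of the members thus changed sign, from -0.07, without a call on either side. The scanner's processed signals gave 0 members in air rats between days and 14 for the low dose effect, with medians of 0.92 at the high dose on day 6, -1.05 for the high dose effect and -0.52 for the low dose effect. Air rats between days gave 0 members without a filter on dim probes or with probes averaged, 3 with only the compared groups fitted, and a median of 0.0385 in Cy5 alone. With 1 rat left out, counts ran from 14 to 25 between doses on day 6 and from 0 to 8 in air rats between days. For the effect between days they ran from 26 to 34 at the high dose and from 5 to 10 at the low dose. The cause of these moves was not tested.

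Prim2, Rfc2 and Rpa2 lost their call at the high dose on day 6 under median centring alone. Pola1 and Pola2 lost theirs under median centring too, among other settings. No member gained a call there, so the count fell below 34 and also below 31, the lowest count with 1 rat left out. No paired analysis was possible because rat numbers are unique to each group. Signal near background limits Pola2, Pole2 and Ccne2, and Mcm10 was well above background in 1 of 5 air rats of day 6.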
